A study of Mus musculus with 37 samples.

Results

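The Igf2-H19 and Kcnq1 imprinted clusters lie next to each other on distal chromosome 7 of the mouse. They were followed here through 10 genes, Igf2, H19, Kcnq1ot1, Kcnq1, Cdkn1c, Phlda2, Ascl2, Slc22a18, Tssc4 and Cd81, whose symbols were looked up in the raw count table, where all 10 were found among 35542 genes. No member passed the test between the Smchd1 genotypes after correction. Igf2 alone was called as rising with somite number in both genotypes. It was 1 of 10 members tested in controls (Smchd1 wt) and 1 of 9 after maternal deletion (Smchd1 matdel). Over all genes 6.64% and 3.07% passed. With levels of tissue markers in the model, Igf2 was not called in either genotype.

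The data are RNA-seq counts of the tailbud, the posterior tip of the embryo that holds the mesodermal progenitors of the trunk and tail, from 37 single embryos collected at embryonic day 8 to 8.5. Each embryo had 6 to 11 somites, the blocks of mesoderm whose number stages an embryo. Smchd1 wt embryos (n = 21, 13 female and 8 male) were Smchd1 fl/+ and came from Smchd1 fl/fl mothers with no Cre transgene. Smchd1 matdel embryos (n = 16, 11 female and 5 male) were Smchd1 del/+ and came from Smchd1 del/fl mothers carrying MMTV-Cre, which removes the gene in the growing oocyte. All fathers were Smchd1 +/+ Castaneus males, so every embryo was a C57BL/6 by Cast F1 hybrid. The loss of the oocyte's supply and the loss of the embryo's maternal copy came together in the Smchd1 matdel embryos and cannot be told apart here, and whether an embryo itself carried the transgene is not given in the sources used here. Smchd1, which encodes a chromatin protein needed for silencing on the inactive X chromosome and at some imprinted genes, was measured at 149 ± 22.2 counts per 1e6 counts (CPM, mean ± SD) over the Smchd1 wt embryos. In Smchd1 matdel embryos it was at 89.0 ± 13.3 CPM, a log2 difference of -0.74 (SE 0.074, adjusted p = 1.27e-07, edgeR).

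Imprinted genes are expressed mainly from the copy inherited from 1 parent. In the Igf2-H19 cluster, a control region between the genes is bound by CTCF on the maternal chromosome and methylated on the paternal one, so that shared enhancers act on H19 on the maternal chromosome and on Igf2 on the paternal one. In the Kcnq1 cluster, the long non-coding RNA Kcnq1ot1 is transcribed from the paternal chromosome and silences its neighbours there. The counts used here add the reads of both parental copies, so they measure the output of a gene and not which parent's copy made it.

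Library totals ran from 3061180 to 80579115 counts in Smchd1 wt and from 916444 to 30156555 counts in Smchd1 matdel embryos. All 12 genes of the tailbud marker list, T and Tbx6 among them, had counts in every embryo. So did 8 of 8 gut endoderm and 9 of 10 visceral endoderm markers, but 2 of 10 trophoblast and 1 of 7 somite markers. Detection alone therefore does not tell tailbud from endoderm. The summed level of the tailbud list was 922 to 2297 CPM in Smchd1 wt and 1548 to 2298 CPM in Smchd1 matdel embryos. A pair of libraries stood apart and recur below. Replicate 1 of Smchd1 wt at 10 somites had the lowest tailbud sum, with 3963 CPM of primitive erythroid and 3771 CPM of visceral endoderm markers. The last 2 sums were not the highest. Replicate 1 of Smchd1 matdel at 11 somites had 4283 CPM of erythroid markers, and replicate 1 of Smchd1 wt at 8 somites 4771 CPM of visceral endoderm markers. Replicate 2 of Smchd1 matdel at 10 somites was high in both, at 4187 and 3627 CPM. Replicate 1 of Smchd1 matdel at 6 somites had the highest trophoblast sum, 295 CPM against at most 135 CPM elsewhere, of which 216 CPM were of Hand1, a gene that allantois also expresses, and the highest share of counts on ribosomal RNA (rRNA) genes, 2.77%.

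H19 and Igf2 each host a microRNA gene on their own strand, and the mature sequences are shown because they are the small RNA products of the most abundant members. All 84 bases of Mir675 lie within an H19 exon, so reads there are also H19 reads, whereas Mir483 shares 0 exon bases with Igf2. RefSeq (GRCm38.p6) gives the following mature sequences, 5' to 3', with the seed at bases 2 to 8 in capitals. All are on the minus strand, miR-675-5p at chr7:142577112-142577133, miR-675-3p at chr7:142577078-142577099, miR-483-5p at chr7:142654968-142654989 and miR-483-3p at chr7:142654932-142654952.
mmu-miR-675-5p: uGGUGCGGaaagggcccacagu
mmu-miR-675-3p: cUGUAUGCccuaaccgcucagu
mmu-miR-483-5p: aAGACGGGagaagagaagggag
mmu-miR-483-3p: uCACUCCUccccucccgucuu
The 4 seeds all differ from each other. Mature microRNAs are too short for these libraries, so no level of theirs was measured.

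The RefSeq promoter windows, 250 bases before to 50 bases after an annotated start, were found for 7 of the 10 members. Those of Igf2, Phlda2 and Kcnq1ot1 are shown as those of a growth factor, a growth restrainer and the long non-coding RNA of the Kcnq1 cluster. Each is on the minus strand and written 5' to 3', with capitals marking, on either strand, the letters of the TATA box (TATAAA), of the CCAAT box (CCAAT) and of the GC box (GGGCGG). The Igf2 window is the last of 4 annotated for the gene, at chr7:142657447-142657746, the Phlda2 window lies at chr7:143502475-143502774 and the Kcnq1ot1 window at chr7:143296498-143296797.
Igf2: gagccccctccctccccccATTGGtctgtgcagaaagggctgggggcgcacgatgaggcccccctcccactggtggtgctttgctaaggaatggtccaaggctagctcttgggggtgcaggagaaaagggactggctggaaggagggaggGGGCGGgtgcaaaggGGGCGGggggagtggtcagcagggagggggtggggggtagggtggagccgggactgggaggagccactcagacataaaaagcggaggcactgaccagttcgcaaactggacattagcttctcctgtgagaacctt
Phlda2: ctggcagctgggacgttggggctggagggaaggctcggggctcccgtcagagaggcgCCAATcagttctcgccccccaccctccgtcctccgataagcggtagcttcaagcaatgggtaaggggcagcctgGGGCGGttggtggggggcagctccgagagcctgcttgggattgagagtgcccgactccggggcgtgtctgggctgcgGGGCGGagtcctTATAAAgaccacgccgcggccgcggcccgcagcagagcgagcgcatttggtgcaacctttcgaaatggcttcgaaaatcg
Kcnq1ot1: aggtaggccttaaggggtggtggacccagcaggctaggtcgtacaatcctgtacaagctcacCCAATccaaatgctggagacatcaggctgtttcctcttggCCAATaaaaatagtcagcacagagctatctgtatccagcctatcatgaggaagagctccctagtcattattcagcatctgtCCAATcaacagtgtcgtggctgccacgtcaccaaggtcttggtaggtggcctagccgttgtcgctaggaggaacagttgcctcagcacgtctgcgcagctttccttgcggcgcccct
The Igf2 window held 1 CCAAT box and 2 GC boxes. Of the other annotated Igf2 windows, those numbered 1 and 2 held none of these motifs and number 3 held 1 GC box. Which Igf2 start was in use was not tested. The Phlda2 window held 1 TATA box, which began 30 bases before the start, with 1 CCAAT box and 2 GC boxes. The Kcnq1ot1 window held 3 CCAAT boxes and neither of the other motifs. Among 32851 windows of 300 bases, 13.6% held the TATA box on either strand, 37.4% the CCAAT box and 35.7% the GC box. These matches describe the letters in the windows and were not tied to any level.

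H19 was the most abundant member. This maternally expressed long non-coding RNA (ENSMUSG00000000031, chr7:142575529-142578143, minus strand) averaged 4915 ± 1207 CPM (SD, n = 37), the fourth highest CPM of all genes in the table. Igf2 (ENSMUSG00000048583, chr7:142650766-142666816, minus strand), the paternally expressed growth factor of embryo and placenta, averaged 1622 ± 365 CPM and ranked 28. Per kilobase of exon, H19 stood at 1998 ± 491 RPKM and Igf2 at 283 ± 63.7 RPKM (RPKM, the CPM divided by the exon length in kilobases), and H19 was above Igf2 in 37 of 37 embryos. Igf2 shares 3596 of its exon bases, 62.8%, with Gm49394, a gene model on the same strand, and the share of reads counted for each cannot be separated here.

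The maternally expressed growth restrainers of the Kcnq1 cluster came next. Phlda2 (ENSMUSG00000010760, chr7:143501545-143503150, minus strand), which encodes a small protein that limits placental growth, averaged 93.2 ± 35.1 RPKM. Cdkn1c (ENSMUSG00000037664, chr7:143458339-143461050, minus strand), which encodes the cyclin-dependent kinase inhibitor p57, averaged 45.0 ± 24.9 RPKM and was below Phlda2 in 37 of 37 embryos. The tetraspanin gene Cd81 (ENSMUSG00000037706, chr7:143052739-143067934, plus strand) followed at 39.1 ± 2.67 RPKM, and Cdkn1c was above it in only 20 of 37 embryos, so these neighbours did not differ beyond their spread. With each gene's longest transcript as its length, Cd81 stood above Cdkn1c, at 70.0 against 48.3 RPKM. Tssc4 (ENSMUSG00000045752, chr7:143069249-143071093, plus strand), whose protein takes part in assembling the splicing machinery, averaged 18.1 ± 2.94 RPKM and was below Cd81 in every embryo.

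The other members had few counts. Slc22a18 (ENSMUSG00000000154, chr7:143473736-143499334, plus strand), a transporter gene, averaged 1.45 ± 0.920 RPKM. Ascl2 (ENSMUSG00000009248, chr7:142966829-142969264, minus strand), which encodes a transcription factor needed in trophoblast, averaged 0.636 ± 0.325 RPKM and had 0 counts in 1 embryo. Kcnq1 (ENSMUSG00000009545, chr7:143106362-143427042, plus strand), the potassium channel gene that gives its cluster its name, had 272 counts in all 37 embryos together and 0 counts in 3 of them, and it passed the count filter in 2 fits alone, that of Smchd1 wt embryos on somite number and that at 11 somites, without a call in either. Kcnq1ot1 (ENSMUSG00000101609, chr7:143203458-143296549, minus strand), which spans 93092 annotated bases opposite Kcnq1, had 2699 counts in all and averaged 5.34 ± 2.05 CPM, or 0.0573 ± 0.0220 RPKM. Kcnq1 and Kcnq1ot1 share 121 exon bases on opposite strands, and since either a kit that keeps strand or one that does not may have been used, how their reads there were assigned is not known.

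**Figure D1:**
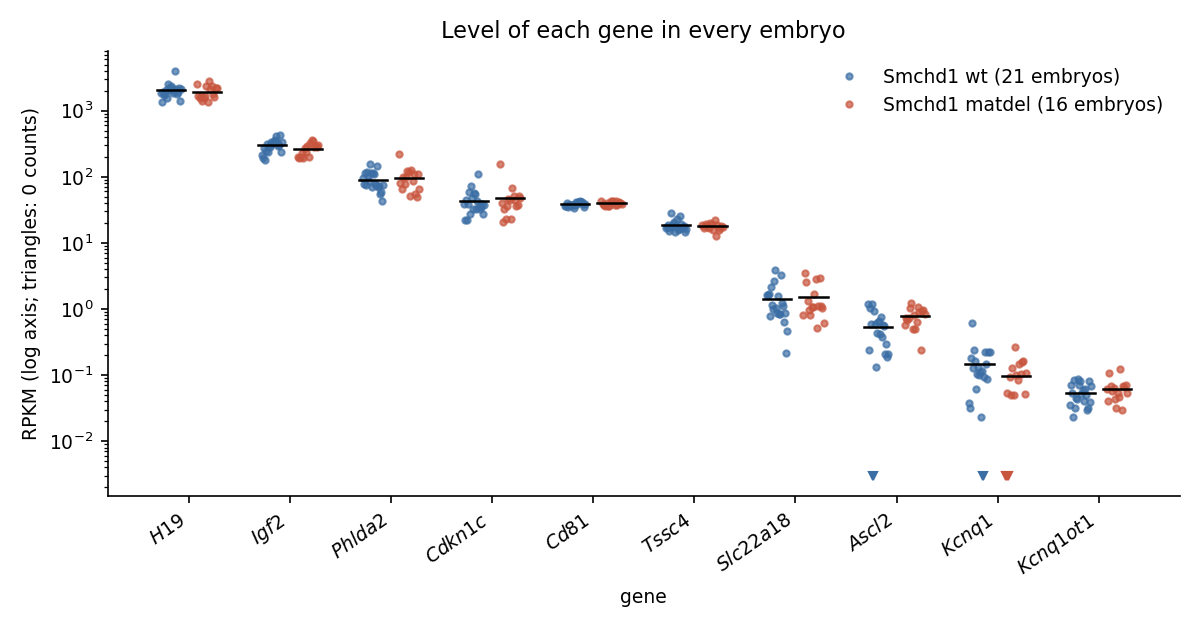
The level of each member in every embryo, in RPKM on a log axis, with members ordered by mean level. Points are embryos, black bars are the means of each genotype and triangles mark embryos with 0 counts, and the levels run from 1998 RPKM for H19 to 0.0573 RPKM for Kcnq1ot1 with the genotypes overlapping in every member.

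The members differed widely in how much they varied between embryos. Cd81 was the steadiest, with a coefficient of variation of 6.84% over 37 embryos, and its SD on the log2 scale was lower than that of all but 1.18% of the genes tested. Cdkn1c spanned 7.55-fold between its lowest and its highest embryo, and Slc22a18 spanned 18.5-fold. Igf2 spanned 2.39-fold and H19 2.93-fold.

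To ask whether maternal deletion of Smchd1 changed the output of the clusters, the genotypes were compared over all 37 embryos with stage and sex in the model. 0 of the 9 members tested passed an adjusted p of 0.05 (edgeR quasi-likelihood test, two-sided), where 0.0136% of all 14733 genes did. At an unadjusted p under 0.05, 2 members passed, Igf2 and Ascl2, where 5.66% of all genes did, and DESeq2 also called 0 members after adjustment. The median log2 difference over the 9 members was 0.091, against 0.0026 over all genes tested.

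Igf2 ran from 1023 to 2444 CPM with a median of 1726 CPM in Smchd1 wt and from 1094 to 2052 CPM with a median of 1587 CPM in Smchd1 matdel embryos, so the genotypes overlapped over most of their range. The means were 1709.5 ± 377 CPM (SD, n = 21) and 1507 ± 324 CPM (SD, n = 16), and the log2 difference was -0.15 (SE 0.068, 95% interval -0.28 to -0.0079, unadjusted p = 0.0389, adjusted p = 0.864). The Smchd1 matdel mean was the lower at 6 of 6 stages, by the least at 9 somites (1964 against 1967 CPM), and 3 of the 16 Smchd1 matdel embryos were above the Smchd1 wt mean of their stage.

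H19, the gene that shares enhancers with Igf2, ran from 3355 to 9829.8 CPM with a median of 4812 CPM in Smchd1 wt and from 3355 to 6869 CPM with a median of 4256 CPM in Smchd1 matdel embryos. Its log2 difference was -0.071 (SE 0.10, adjusted p = 0.953). The ratio of H19 to Igf2 within an embryo, in CPM, was 2.99 ± 0.549 (SD, n = 21) in Smchd1 wt and 3.20 ± 0.721 (n = 16) in Smchd1 matdel embryos. That difference was smaller than the spread of either group over all stages. At 11 somites the ratio ran from 2.24 to 2.77 in Smchd1 wt (n = 3) and from 3.11 to 3.31 in Smchd1 matdel (n = 2). These did not overlap, and neither did the levels of 27.1% of all genes tested at that stage. The ratios of the genotypes overlapped at every other stage. The Smchd1 matdel mean was the lower at 7 somites (2.86 against 3.10) and 10 somites (2.67 against 3.05), and the higher at the other stages. The ratio was not tested.

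In the Kcnq1 cluster, Kcnq1ot1 ran from 2.17 to 8.05 CPM with a median of 4.78 CPM in Smchd1 wt and from 2.74 to 11.6 CPM with a median of 5.56 CPM in Smchd1 matdel embryos, a log2 difference of 0.19 (SE 0.17, adjusted p = 0.902). Cdkn1c, one of the genes that Kcnq1ot1 silences on the paternal chromosome, ran from 44.8 to 222 CPM with a median of 78.3 CPM and from 41.9 to 316 CPM with a median of 85.4 CPM, a difference of 0.14 (SE 0.22, adjusted p = 0.964). Its 95% interval, -0.30 to 0.58, covered both directions. Phlda2 ran from 48.7 to 178 CPM with a median of 88.7 CPM and from 56.4 to 249.8 CPM with a median of 104 CPM, with a difference of 0.091 (SE 0.15, adjusted p = 0.973).

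Ascl2 had the largest log2 difference of the members. It ran from 0 to 1.94 CPM with a median of 0.906 CPM in Smchd1 wt and from 0.392 to 2.01 CPM with a median of 1.25 CPM in Smchd1 matdel embryos, and the groups overlapped. The log2 difference was 0.57 (SE 0.25, 95% interval 0.065 to 1.08, unadjusted p = 0.0279, adjusted p = 0.864). These levels rest on few reads, as an embryo gave at most 87 counts of Ascl2. Of the remaining members, Slc22a18 differed by 0.14 (SE 0.25, adjusted p = 0.977), Tssc4 by -0.041 (SE 0.074, adjusted p = 0.975) and Cd81 by 0.044 (SE 0.034, adjusted p = 0.886), and for Cd81 the 95% interval of -0.024 to 0.11 was the narrowest of the members.

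**Figure D2:**
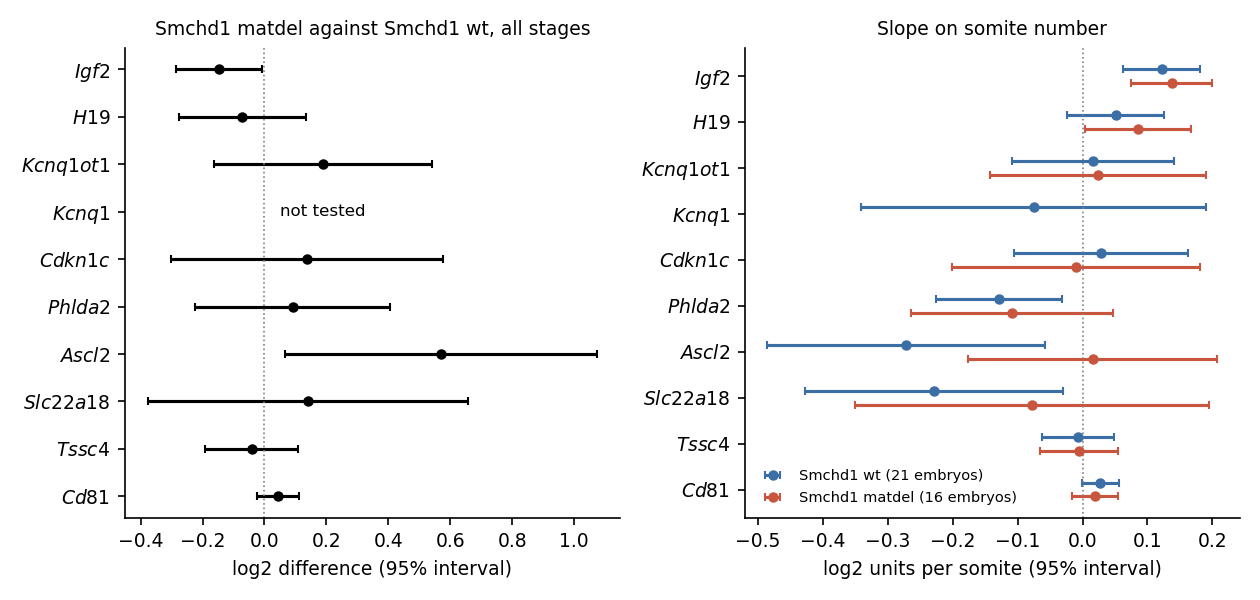
Left, the log2 difference of Smchd1 matdel from Smchd1 wt embryos over all stages, and right, the slope on somite number within each genotype, in log2 units per somite. Points are edgeR estimates and bars are 95% intervals, and the slope of Igf2 is above 0 in both genotypes. Of the genotype differences, the intervals of Igf2 and Ascl2 exclude 0, and no member passed after adjustment.

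The comparison was repeated in earlier and later embryos. At 6 to 8 somites 0 of 9 members passed after adjustment (0.0069% of all genes did), and Igf2 differed by -0.20 (SE 0.093, unadjusted p = 0.0460, adjusted p = 0.613), with 8.13% of all genes under an unadjusted 0.05. At 9 to 11 somites 0 of 9 passed (0.00671% of all genes did), and Ascl2 differed by 0.93 (SE 0.32, unadjusted p = 0.00915, adjusted p = 0.9997), with 1.75% of all genes under an unadjusted 0.05. In a direct test of whether the genotype difference changed between the windows, 0 of 9 members and 0% of all genes passed and 0 members had an unadjusted p under 0.05, where 3.36% of all genes did. DESeq2 called 0 members in each of these comparisons too.

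Single stages were compared with genotype alone in the model and 2 to 4 embryos a group. At each of the 6 stages 0 members and 0% of all genes passed after adjustment, and DESeq2 called 0 members as well. Sex was not in these fits, and its share differed between the genotypes at 7 to 11 somites. At 9 and 10 somites 0 members had an unadjusted p under 0.05, where 1.15% and 0.56% of all genes did, and members under it at the other stages are given here. At 6 somites Cdkn1c had 78.3, 44.8, 89.6 and 45.1 CPM in Smchd1 wt and 316, 81.3, 41.9 and 65.6 CPM in Smchd1 matdel embryos. The Smchd1 matdel replicate 1, which also had the highest level of Hand1 and the highest sums of allantois and trophoblast markers, was far above the rest, while the other embryos of both genotypes overlapped. The fitted difference of 1.02 (unadjusted p = 0.0428, adjusted p = 0.862) became 0.035 without this library and -0.18 without it and Smchd1 matdel replicate 2 of the same stage, the ones with the highest shares of ribosomal RNA counts, and 5.54% of all genes were under an unadjusted 0.05 at this stage.

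At 7 somites, H19 had 4371, 5045, 3848 and 6153 CPM in Smchd1 wt and 3411, 3874 and 4049 CPM in Smchd1 matdel embryos, a difference of -0.37 (unadjusted p = 0.0210, adjusted p = 0.962). Slc22a18 at 7 somites, with 3.67, 1.98, 1.67 and 4.56 CPM in Smchd1 wt and 1.66, 1.40 and 1.81 CPM in Smchd1 matdel embryos, differed by -0.92 (unadjusted p = 0.0370, adjusted p = 0.962). Without replicate 4 of Smchd1 wt these differences were -0.23 for H19 and -0.56 for Slc22a18 (unadjusted p = 0.0531 and 0.193). At this stage 4.83% of all genes had an unadjusted p under 0.05. At 8 somites, Kcnq1ot1 had 8.05, 6.50 and 7.46 CPM in Smchd1 wt and 2.97 and 4.95 CPM in Smchd1 matdel embryos, which did not overlap. That difference was -0.90 (unadjusted p = 0.0167, adjusted p = 0.999), and it ran from -0.56 (unadjusted p = 0.154) without Smchd1 matdel replicate 1 to -1.30 without Smchd1 matdel replicate 2. Cd81 did not overlap at that stage either, in the other direction, with 108, 98.6 and 106 CPM in Smchd1 wt and 124 and 119 CPM in Smchd1 matdel embryos, a difference of 0.22 (unadjusted p = 0.112). With 3 embryos against 2, these were 2 of the 10 members, where 15.8% of all genes tested did not overlap and 2.81% were under an unadjusted 0.05. Of the Smchd1 wt embryos at 8 somites 2 were male, while the Smchd1 matdel embryos were all female, so genotype and sex were mixed there. At 9 somites Kcnq1ot1 was instead higher in 1 of the Smchd1 matdel embryos, at 4.40 and 11.6 CPM against 4.78, 5.45 and 3.70 CPM.

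The 11-somite embryos held the most members with a low unadjusted p. Ascl2 had 0.478, 0.302 and 0.337 CPM in Smchd1 wt, from 8, 5 and 3 counts, and 1.57 and 1.36 CPM in Smchd1 matdel embryos, from 22 counts each. The groups did not overlap, and the difference was 1.93 (unadjusted p = 0.00873). Cdkn1c, at 80.0, 56.8 and 77.3 CPM in Smchd1 wt and 106 and 98.9 CPM in Smchd1 matdel, did not overlap either, with a difference of 0.51 (unadjusted p = 0.00378). Phlda2 had 66.9, 48.7 and 83.0 CPM in Smchd1 wt and 122 and 72.9 CPM in Smchd1 matdel embryos, which overlapped, and differed by 0.56 (unadjusted p = 0.0373). That difference was 0.14 (unadjusted p = 0.59) without Smchd1 matdel replicate 1 and 0.89 without Smchd1 matdel replicate 2. The adjusted p was 0.567 for each of these members, 8.66% of all genes were under an unadjusted 0.05 at this stage, and 2 of the 10 members, beside 27.1% of all genes, did not overlap between 3 and 2 embryos.

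The question of how the clusters change as the embryo adds somites was put to each genotype apart. Igf2 rose with somite number in both genotypes, and it was the only member called in either, 1 of 10 members tested in Smchd1 wt, where 6.64% of 15148 genes passed and 3.13% rose, and 1 of 9 in Smchd1 matdel, where 3.07% of 15477 genes passed and 1.93% rose. At 6 somites Igf2 had 1235, 1103, 1584 and 1023 CPM in Smchd1 wt and 1129.6, 1121, 1153 and 1310.1 CPM in Smchd1 matdel embryos. At 7 somites it had 1411, 1813, 1342 and 1687 CPM and 1094, 1562 and 1354 CPM, in the same order. At 8 somites the Smchd1 wt embryos had 1627, 1904 and 1826 CPM and the Smchd1 matdel embryos 1679 and 1157 CPM. At each of these stages the genotypes overlapped.

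At 9 somites Igf2 stood at 1858, 1980.2 and 2063 CPM in Smchd1 wt and 1876 and 2052 CPM in Smchd1 matdel embryos. At 10 somites the values were 2407, 1925, 1691 and 1726 CPM and 1998, 1627 and 1655 CPM. At 11 somites they were 2444, 1342 and 1908 CPM and 1612 and 1735 CPM. The means were highest at 9 somites, with 1967 CPM in Smchd1 wt and 1964 CPM in Smchd1 matdel, and embryos with 10 or 11 somites lay on both sides of that level.

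The slope of Igf2 was 0.12 log2 units per somite (SE 0.029, adjusted p = 0.0124) in Smchd1 wt and 0.14 (SE 0.030, adjusted p = 0.0139) in Smchd1 matdel embryos. Embryos with 6 or 7 somites averaged 1399.8 ± 279.6 CPM (SD, n = 8) and those with 10 or 11 averaged 1921 ± 395 CPM (n = 7) in Smchd1 wt, a ratio of 1.37. In Smchd1 matdel the means were 1246 ± 172 CPM (n = 7) and 1725 ± 159.6 CPM (n = 5), a ratio of 1.38. All 5 late Smchd1 matdel embryos were above the highest early one, a separation in that direction found for 1.83% of all genes, while in Smchd1 wt 4 of the 7 late embryos were. The slopes differed by -0.00034 (95% interval -0.090 to 0.089, adjusted p = 0.9998), and 0 of 9 members and 0% of all genes passed that test.

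Some endothelial and primitive erythroid markers rose along with Igf2. Of the 8 genes of the endothelial list, 2 were called higher with somite number in each genotype and 6 were not called. They were Cdh5, which encodes the cadherin of endothelial junctions, and Tie1, an endothelial receptor kinase. Of 9 primitive erythroid markers, 7 were not called and 2 were called higher in each genotype, the embryonic globin gene Hbb-y and Slc4a1, the anion exchanger of red cells. Over all genes 3.13% rose in Smchd1 wt and 1.93% in Smchd1 matdel. The summed level of the endothelial list ran from 210 to 413 CPM in Smchd1 wt and from 218 to 461 CPM in Smchd1 matdel embryos. With the mean levels of the endothelial, allantois and tailbud lists in the model, the slope of Igf2 was 0.087 in Smchd1 wt (adjusted p = 0.177) and 0.089 in Smchd1 matdel (adjusted p = 0.468) and was not called. With the erythroid, visceral endoderm and somite lists it was 0.10 (adjusted p = 0.759) and 0.12 (adjusted p = 0.78). Few genes of any kind were called in most of these fits. The shares were 2.63% in Smchd1 wt and 0.11% in Smchd1 matdel with the first lists, and 0.0198% and 0.084% with the second. The unadjusted p of the Igf2 slope was under 0.05 in all 8 alternative edgeR or DESeq2 fits in Smchd1 wt (highest 0.0177) and all 9 in Smchd1 matdel (highest 0.0279). In bulk tissue, fewer cells of a type and less RNA per cell cannot be told apart, and the part of these markers in the rise was not tested beyond these fits. In female Smchd1 wt embryos alone the slope was 0.10 (adjusted p = 0.0685), and without both rRNA-rich libraries the Smchd1 matdel slope was 0.12 (adjusted p = 0.0836).

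**Figure D3:**
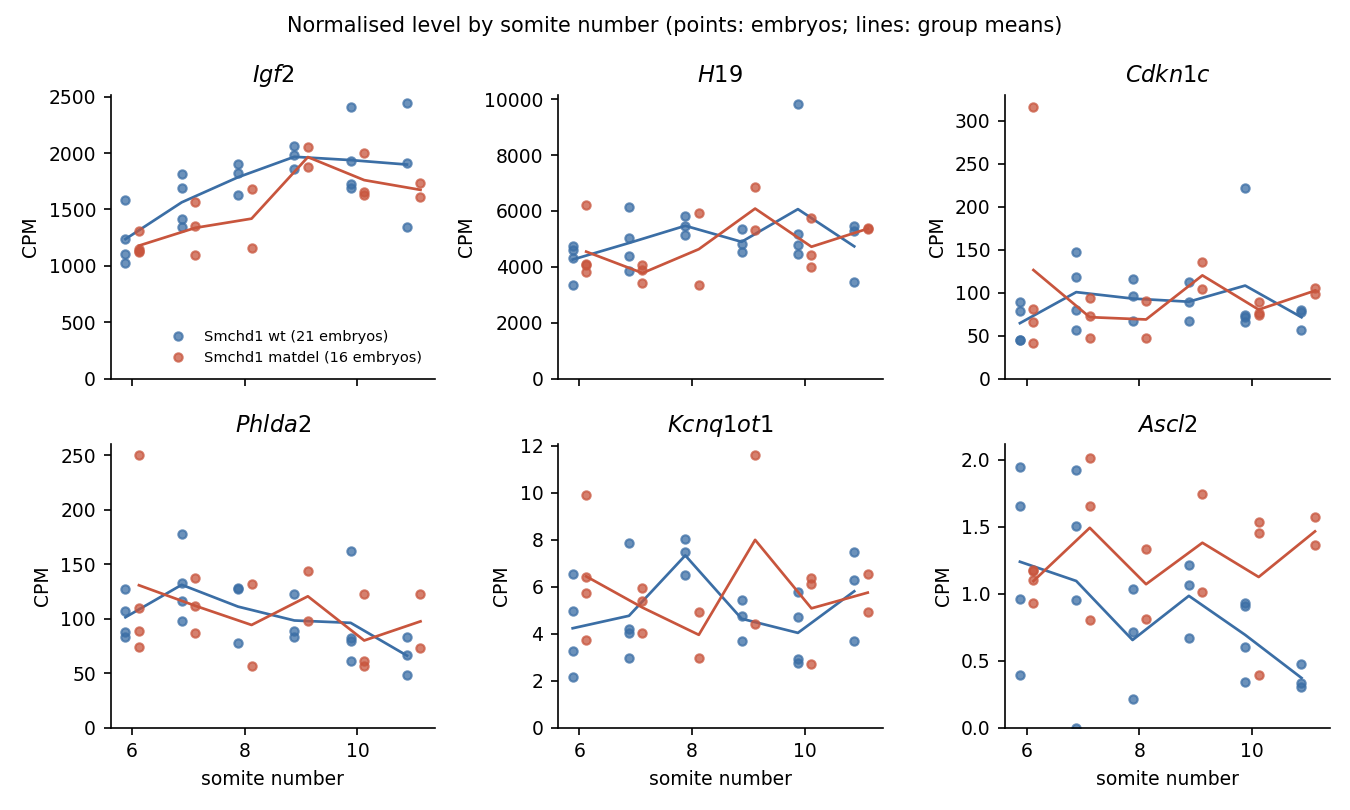
Normalised level in CPM against somite number for Igf2, H19, Cdkn1c, Phlda2, Kcnq1ot1 and Ascl2, with each axis starting at 0. Points are embryos and lines join the means of each genotype, and Igf2 climbs from 6 to 9 somites in both genotypes while H19 and Cdkn1c show single high embryos at 10 somites in Smchd1 wt and 6 somites in Smchd1 matdel.

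H19 did not pass the test in either genotype. Its slope was 0.051 (SE 0.036, adjusted p = 0.443) in Smchd1 wt and 0.086 (SE 0.039, adjusted p = 0.259) in Smchd1 matdel embryos, and the 95% interval in Smchd1 wt was -0.023 to 0.13. Kcnq1ot1 had slopes of 0.016 (SE 0.060, adjusted p = 0.917) and 0.024 (SE 0.080, adjusted p = 0.927), and Cdkn1c of 0.029 (SE 0.065, adjusted p = 0.848) and -0.010 (SE 0.091, adjusted p = 0.977). The slopes of Tssc4 were -0.0066 and -0.0058 and those of Cd81 0.027 and 0.020, with no adjusted p under 0.05.

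Phlda2, Ascl2 and Slc22a18 had negative slopes in Smchd1 wt embryos that did not pass after adjustment. Phlda2 averaged 116 ± 30.3 CPM (SD, n = 8) at 6 or 7 somites and 83.4 ± 37.0 CPM (n = 7) at 10 or 11, and 6 of the 7 late embryos were below the lowest early one. The seventh was the 10-somite replicate 1 that stood apart, at 162 CPM. The slope of Phlda2 was -0.13 (SE 0.047, adjusted p = 0.103) over 21 embryos and -0.16 (adjusted p = 0.0156) without that library, when Slc22a18 was also called at -0.28 (adjusted p = 0.0454), and DESeq2 called Phlda2 over all 21 embryos (-0.13, adjusted p = 0.0475). In female embryos alone Phlda2 (-0.16, adjusted p = 0.0388) and Slc22a18 (-0.31, adjusted p = 0.039) were called and Igf2 was not (adjusted p = 0.0685). The slopes of Slc22a18 and Ascl2 over 21 embryos were -0.23 (SE 0.10, adjusted p = 0.163) and -0.27 (SE 0.10, adjusted p = 0.119). In Smchd1 matdel embryos the slopes were -0.11 (SE 0.074, adjusted p = 0.481) for Phlda2 and 0.015 (SE 0.092, adjusted p = 0.971) for Ascl2, and the difference between the genotypes for Ascl2 was 0.29 (SE 0.13, unadjusted p = 0.0359, adjusted p = 0.9998). The median slope of the 10 members in Smchd1 wt was 0.0046, against -0.0018 over all genes.

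Across embryos, H19, Cdkn1c and Phlda2 went up and down together although H19 lies in the Igf2-H19 cluster and the others in the Kcnq1 cluster. The 37 points share libraries, stages and genotypes, so the correlations that follow are descriptions. H19 and Cdkn1c, compared as log2 CPM, had Pearson's r = 0.815 and Spearman's rho = 0.818 over 37 embryos, with r = 0.879 within Smchd1 wt and 0.787 within Smchd1 matdel. Without the 2 embryos farthest from the median of H19, r was 0.765. Among 14732 genes, Cdkn1c was the third most like H19, after Tmem119, which encodes a membrane protein of bone-forming cells and microglia, and Sgce, an imprinted gene of another chromosome that encodes a sarcoglycan.

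Cdkn1c and Phlda2 had r = 0.736 and rho = 0.680, or r = 0.619 without the 2 farthest embryos. H19 and Phlda2 had r = 0.579 and rho = 0.518, and r = 0.854 once the mean of each genotype and stage was subtracted. Igf2 and H19 had r = 0.666 and rho = 0.649. Igf2 and Phlda2 had r = 0.0491, but r = 0.463 once the mean of each genotype and stage was subtracted. Kcnq1ot1 was apart from the members it regulates, with r = 0.0510 with Cdkn1c and 0.0177 with Phlda2, values that rest on few counts.

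**Figure D4:**
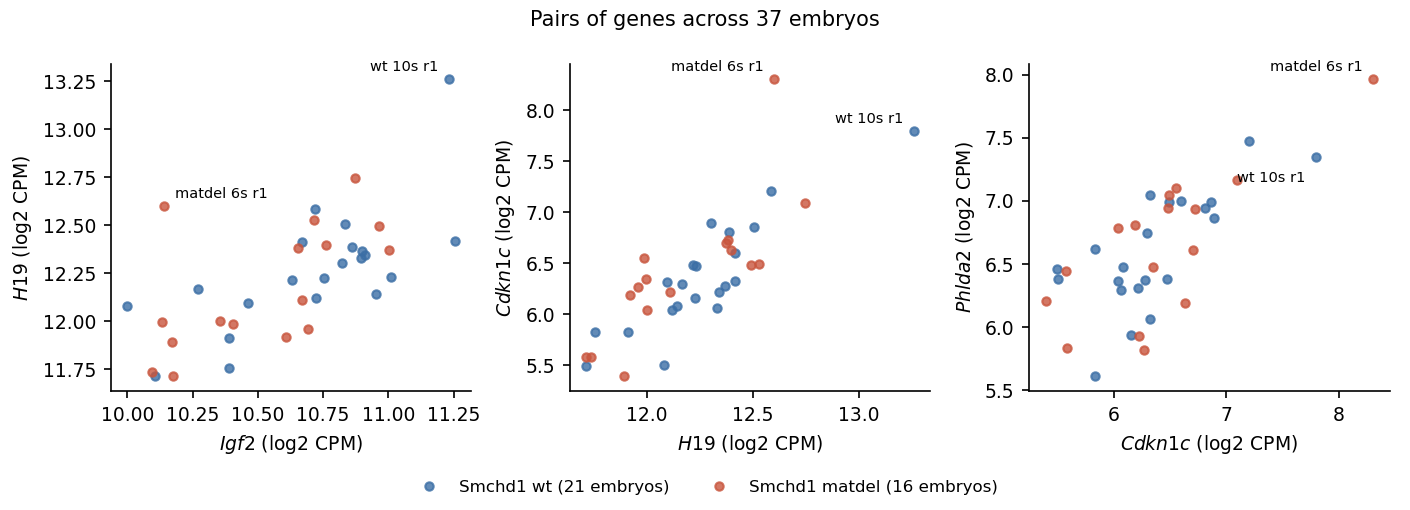
Pairs of members across 37 embryos, in log2 CPM on both axes, for Igf2 and H19, H19 and Cdkn1c, and Cdkn1c and Phlda2. Points are embryos coloured by genotype, the labels mark replicate 1 of Smchd1 wt at 10 somites and replicate 1 of Smchd1 matdel at 6 somites, and the H19 and Cdkn1c points climb together (r = 0.815) in both genotypes.

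The same members followed markers of other tissues. The list for allantois and extraembryonic mesoderm holds 8 genes, Hand1, Bmp4, Tbx4 and Vcam1 among them, of which lateral plate mesoderm also expresses several, and Hand1 is in the trophoblast list as well. Its summed level ran from 188 to 537 CPM in Smchd1 wt and from 190 to 603 CPM in Smchd1 matdel embryos, 6 of its genes had counts in every embryo, and 0 of the 7 tested were called between the genotypes or with somite number. The mean log2 level of the list had r = 0.784 and rho = 0.847 with Cdkn1c. With H19 it had r = 0.761 and rho = 0.768, and with Phlda2 r = 0.717 and rho = 0.760. The part of these cells in the levels of the members was not tested.

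Igf2 instead followed the endothelial list most closely, with r = 0.833 and rho = 0.855, and r = 0.607 within groups of genotype and stage. The gene most like Igf2 was Gm49394 (r = 0.999), with which it shares exon bases, followed by Tal1 (r = 0.864), a transcription factor of blood and endothelial precursors, and Dsc2 (r = 0.861), a desmosomal cadherin. H19 also ran against the tailbud list, at r = -0.649, or -0.434 without the 2 farthest embryos. Slc22a18 followed the visceral endoderm list, at r = 0.711 and rho = 0.658. That list ran from 13.8 to 4771 CPM in Smchd1 wt and from 19.8 to 3627 CPM in Smchd1 matdel embryos, and 3 of its 10 genes, Apob, Ttr and Hnf4a, were called lower with somite number in Smchd1 wt.

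Phlda2 was most like Hand1 (r = 0.896), a transcription factor of extraembryonic and lateral mesoderm that is also in the allantois list, then Tmem88 (r = 0.883) and the keratin gene Krt8 (r = 0.848). Cdkn1c was most like Gm44732 (r = 0.891), an antisense gene model covering 30.7% of its exon bases, then H19 and Eif4ebp1 (r = 0.809), which encodes a repressor of translation. The genes most like Tssc4 were Tmem259, Akr1a1 and Txn2 (r = 0.842, 0.824 and 0.809), and those most like Cd81 were Klhl25, Ier2 and Phc2 (r = 0.754, 0.741 and 0.733). For Slc22a18 they were Tdrp, Sec61a1 and Agpat4 (r = 0.827, 0.812 and 0.807), Sec61a1 being a channel subunit of the endoplasmic reticulum. Ascl2 was most like Sez6l2, 1700008J07Rik and Ppp1r13l (r = 0.662, 0.632 and 0.623). These likenesses are over 37 embryos and log2 CPM.

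**Figure D5:**
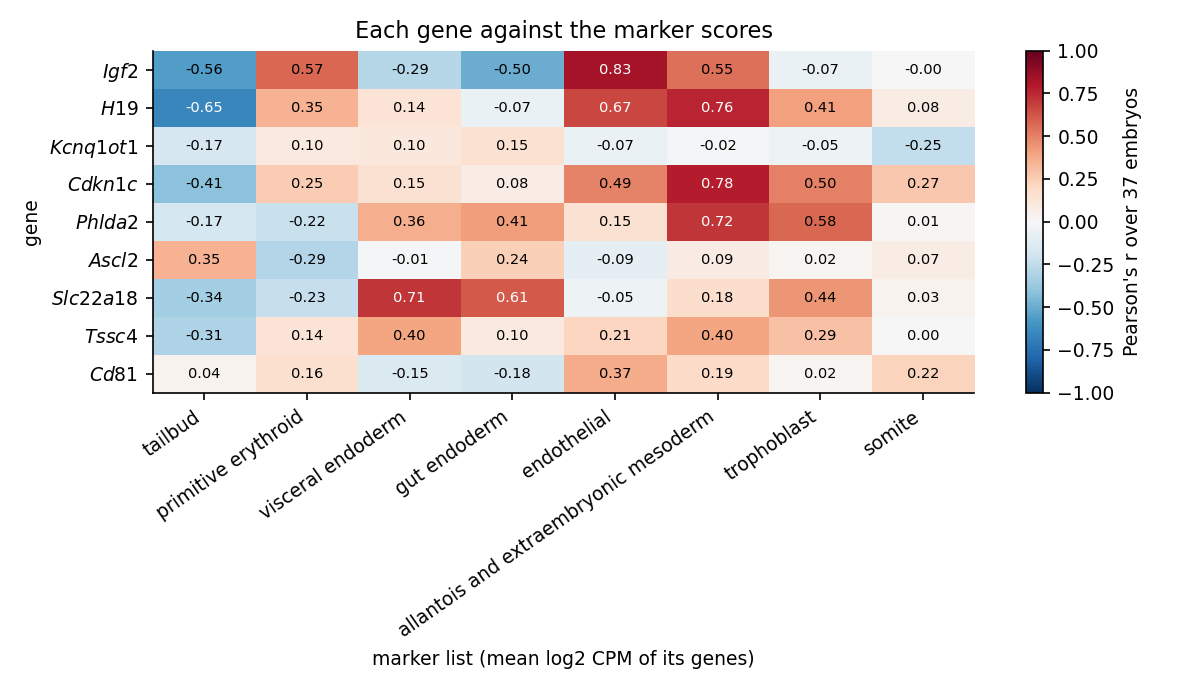
Pearson's r over 37 embryos between the log2 CPM of each member (rows) and the mean log2 CPM of each marker list (columns), on a colour scale from -1 to 1, with the value written in each cell. Igf2 is highest with the endothelial list (0.83), H19, Cdkn1c and Phlda2 with the allantois and extraembryonic mesoderm list (0.76, 0.78 and 0.72), and Slc22a18 with the visceral endoderm list (0.71).

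The libraries that stood apart carried several members with them. In replicate 1 of Smchd1 wt at 10 somites, H19 was at 9829.8 CPM against 4811 ± 373 CPM (SD, n = 3) in the other embryos of its group. Cdkn1c was at 222 CPM against 70.3 ± 4.30 CPM, and Phlda2 at 162 CPM against 74.2 ± 11.5 CPM. In replicate 1 of Smchd1 matdel at 6 somites, Cdkn1c was at 316 CPM against 62.9 ± 19.9 CPM (n = 3), and Phlda2 was 2.75 times and H19 1.55 times the mean of the others. Igf2 there was within the spread of the others, at 1129.6 CPM against 1195 ± 101 CPM. That embryo also had the highest level of the trophoblast giant cell hormone Prl3d1, 26.8 CPM, though another embryo had 18.2 CPM. Tfap2c of the trophoblast list was highest there too, at 35.5 CPM against at most 14.2 CPM elsewhere. Other genes of that list were not, as Gcm1 had 0 CPM there and Esx1, Plac1 and Elf5 were highest in other embryos. The spongiotrophoblast marker Tpbpa had 0 counts in 35 of 37 embryos.

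Other genes of the pathways around the members were read from lists of 20, 20, 20 and 14 genes. Over all genes, 0.0136% were called between genotypes. With somite number, 6.64% of all genes passed and 3.13% rose in Smchd1 wt, and 3.07% passed and 1.93% rose in Smchd1 matdel. Of the neighbours on distal chromosome 7, 0 of 12 tested were called between genotypes. With somite number in Smchd1 wt, 1 of 13 rose, Dhcr7, the last enzyme of cholesterol synthesis, at 0.13 (adjusted p = 0.00618), and 1 fell, Lsp1, an actin-binding protein gene of white blood cells, at -0.14 (adjusted p = 0.0451). That count of 2 was 1 to 3 with 1 embryo left out, with 1 in 15 of 21 cases, and 0 with either set of marker scores as covariates. Dhcr7 also rose in Smchd1 matdel at 0.13 (adjusted p = 0.00637), as 1 of 13 tested. The median slope of the neighbours in Smchd1 wt was -0.025, against -0.0018 over all genes.

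In the IGF axis, the ligands, receptors and binding proteins around Igf2, 0 of 17 genes tested were called between genotypes. In Smchd1 wt 2 of 18 rose with somite number, Igfbp5, a secreted IGF-binding protein, at 0.25 (adjusted p = 3.39e-05) and Stc2, which encodes an inhibitor of binding-protein cleavage, at 0.13 (adjusted p = 0.0498), and Igfbp1, a binding protein of liver and yolk sac, fell at -0.97 (adjusted p = 0.00234). In Smchd1 matdel 2 of 17 rose, Igfbp5 at 0.31 (adjusted p = 5.64e-04) and Igfbp3 at 0.14 (adjusted p = 0.0129). Over all genes 3.13% rose in Smchd1 wt and 1.93% in Smchd1 matdel. The number of genes of this list called ran from 0 to 5 in Smchd1 wt and from 0 to 3 in Smchd1 matdel over the alternatives. With 1 embryo left out it ran from 2 to 5 and from 2 to 3. The median slope of this list was 0.037 in Smchd1 wt and 0.059 in Smchd1 matdel, against -0.0018 and 0.0024 over all genes.

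Among the factors that act at imprinting control regions, only Smchd1 itself was called between genotypes, 1 of 18 tested, beside 0.0136% of all genes. Over all genes 6.64% passed with somite number in Smchd1 wt and 3.07% in Smchd1 matdel. With somite number 0 of 18 passed in Smchd1 wt and 1 of 18 in Smchd1 matdel, Zfp57, a zinc finger protein that keeps imprints methylated, at 0.16 (adjusted p = 0.00938). Among the cyclin-dependent kinase inhibitors and G1 cyclins, the family of Cdkn1c, 0 of 11 were called between genotypes, 1 of 13 fell with somite number in Smchd1 wt, Cdkn1a, which encodes the inhibitor p21, at -0.12 (adjusted p = 0.018), and 0 of 13 passed in Smchd1 matdel.

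Sex was also compared, over all embryos with stage and genotype in the model. 0 of 9 members passed after adjustment, where 0.217% of all genes did, and 1 had an unadjusted p under 0.05, where 3.26% of all genes did. This was Slc22a18, with a log2 difference of male from female embryos of 0.63 (SE 0.29, unadjusted p = 0.0376, adjusted p = 0.9998). The visceral endoderm list, which Slc22a18 followed, had a median log2 difference of 0.81 between the sexes with 0 of 10 genes called, and its part in the difference was not tested.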

How the data were processed

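RNA-seq reads of 37 single embryos were trimmed with Trim Galore 0.4.4, aligned to GRCm38.p6 with HISAT2 2.0.5 and quantitated per gene in SeqMonk by the authors, who deposited raw read counts. Libraries were made with either a kit that keeps strand or one that does not, and which kit made these libraries is not given in the sources used here, so antisense partners may share counts. In the table, 49 repeated rows were dropped and 26 date-like symbols were replaced by way of their gene identifiers, leaving 35542 genes. Groups are genotype and somite number from the sample titles, and each replicate is an embryo.

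Genes passing filterByExpr (minimum count 10) were tested with edgeR 4.0.16 (TMM, quasi-likelihood, R 4.3.3), with p-values adjusted over all genes tested by Benjamini-Hochberg at 0.05. Genotype fits over several stages held stage and sex, those within a single stage held genotype alone, and slope fits held sex and somite number. DESeq2 1.42.0, other size factors, no filter, a replicate block, covariates and left-out embryos were alternatives, and scripts were tested on simulated counts. CPM is counts per 1e6 counts with TMM scaling, and RPKM divides it by exon length. The naming rule covered the 10 members, up to 3 genes of each list called with somite number in Smchd1 wt, and the 3 genes most correlated with each member, which for Kcnq1ot1 are not reported here. List genes called in Smchd1 matdel alone, and Prl3d1, Tfap2c, Gcm1, Esx1, Plac1, Elf5 and Tpbpa of the trophoblast list, were named after their values were seen. Members and lists were chosen with earlier results of these data known. Depth was 916444 to 80579115 counts, so members with few counts carry wide intervals.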

Additional observations from a re-analysis of the deposited data

Results flagged for a closer look

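Among 40 sets of 4 embryos checked with Dixon's criterion (critical value 0.829), 6 held an embryo far from the others. For normally distributed values, chance flags about 1 in 20 such sets. The sets reuse the same embryos for every member, so the number flagged cannot be set against that rate. H19 in replicate 1 of Smchd1 wt at 10 somites was at 9830 CPM, against 4447 to 5192 CPM in the other 3 embryos, and Cdkn1c in the same embryo was at 221.8 CPM against 65.65 to 74.11 CPM. This embryo had the lowest sum of tailbud markers (922 CPM). H19 in replicate 1 of Smchd1 matdel at 6 somites was at 6203 CPM against 3798 to 4099 CPM, and Cdkn1c there was at 316.3 CPM against 41.89 to 81.34 CPM. This embryo had the highest sums of allantois (603 CPM) and trophoblast (295 CPM) markers, with Hand1, which is in both lists, at 216 CPM. The part of those tissues in these values was not tested. Igf2 in replicate 4 of Smchd1 matdel at 6 somites was at 1310 CPM against 1121 to 1153 CPM. Slc22a18 in replicate 4 of Smchd1 wt at 6 somites was at 1.323 CPM, from 11 counts, against 2.718 to 2.9 CPM.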

How the results depend on the processing

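The limits are those of few embryos a stage, few counts for Kcnq1, Ascl2, Slc22a18 and Kcnq1ot1, and counts that add both parental copies. The tissue was also bulk, and several members correlated with marker lists of other tissues. No alternative or left-out embryo gave a member an adjusted genotype call over all stages, at 6 to 8 or at 9 to 11 somites.

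The number of members called for a slope in Smchd1 wt was 1 in the main analysis, where 6.64% of all genes were called. It was 2 with DESeq2 (Igf2 and Phlda2, 9.9% of all genes). In female embryos alone it was 2 (Phlda2 and Slc22a18, without Igf2, 12.2% of all genes). With erythroid, visceral endoderm and somite scores as covariates it was 0 (0.0198% of all genes). It was also 0 with endothelial, allantois and tailbud scores (2.63% of all genes), a set of covariates added after seeing the data. Leaving out 1 embryo gave 1 to 3, the 3 without replicate 1 at 10 somites. In Smchd1 matdel the number, 1 in the main analysis (3.07% of all genes), was 1 whichever embryo was left out. It was 0 with erythroid, visceral endoderm and somite scores (0.084% of all genes) and 0 with endothelial, allantois and tailbud scores (0.11%). Without both rRNA-rich libraries it was 0 as well (1.96%). At 11 somites, 2 members were called without a filter on low counts, Cdkn1c (0.51, adjusted p = 0.00178) and Phlda2 (0.56, adjusted p = 5.18e-04), and 0 with it. Without the filter 0.81% of all 21228 genes were called at that stage, against 0% with it. The cause was not tested.

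Estimates that changed sign were none of them called. The genotype difference over all stages became 0.0006 for H19 and 0.049 for Tssc4 in females alone, 0.035 for H19 with endothelial, allantois and tailbud scores, and -0.12 for Cdkn1c and -0.011 for Phlda2 without both rRNA-rich libraries, when that of Cdkn1c at 6 somites became -0.18. That of Ascl2 at 6 to 8 somites became -0.15 in females alone. The slope in Smchd1 wt became -0.0065 for Kcnq1ot1 and -0.037 for Cdkn1c in females alone, 0.011 for Phlda2 and 0.10 for Slc22a18 with erythroid, visceral endoderm and somite scores, -0.0056 for H19 with endothelial, allantois and tailbud scores, and 0.0061 for Tssc4 without the shallowest library. The slope in Smchd1 matdel, with erythroid, visceral endoderm and somite scores, became -0.16 for Kcnq1ot1, -0.0095 for Ascl2 and 0.087 for Slc22a18. With endothelial, allantois and tailbud scores it became -0.0032 for Kcnq1ot1, 0.15 for Cdkn1c, -0.022 for Ascl2 and 0.026 for Tssc4. Without both rRNA-rich libraries it became -0.0037 for Kcnq1ot1, 0.16 for Cdkn1c, -0.0053 for Ascl2 and 0.0082 for Slc22a18. The difference in slope of Igf2 became 0.0005 with DESeq2, 0.0005 with RLE size factors, 0.0058 without sex and 0.048 in females alone.

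With 1 embryo left out, the genotype difference over all stages ran from -0.083 to 0.24 for Cdkn1c, from -0.021 to 0.15 for Phlda2 and from -0.049 to 0.32 for Slc22a18. Slopes in Smchd1 wt ran from -0.013 to 0.048 for Kcnq1ot1, -0.023 to 0.063 for Cdkn1c and -0.017 to 0.0061 for Tssc4. Those in Smchd1 matdel ran from -0.019 to 0.045 for Kcnq1ot1, -0.048 to 0.14 for Cdkn1c, -0.0073 to 0.056 for Ascl2, -0.15 to 0.036 for Slc22a18 and -0.019 to 0.0041 for Tssc4, and the difference in slope of Igf2 from -0.023 to 0.018.

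Replicate numbers are shared between genotypes. The correlation of deviations from the group means was over 0.1 in 4 of 16 pairs (-0.292 to 0.651). Of the Smchd1 matdel embryos, 3 of 16 correlated best with their own number. With so few embryos a group, this check cannot decide whether the numbers pair the embryos, and the main fits did not use them. The replicate block moved no count of members called, giving 0 over all stages, with Igf2 at -0.13 and Ascl2 at 0.59.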
